A study of Mus musculus with 6 samples.

Results

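The transcripts described here encode proteins of the pathways that burn ketone bodies and the branched-chain amino acids leucine, isoleucine and valine, measured in mouse atria. They are 9 of the 43432 genes in the deposited table: Slc16a1, Bdh1, Oxct1 and Acat1 for ketone bodies, and Bcat2, Bckdha, Bckdhb, Bckdk and Ivd for branched-chain amino acids. The genes were taken by name for their place in these pathways; no measured value enters the rule, although earlier results of these data were known when it was set. The table writes gene names in capitals, so 0 of the 9 names were found exactly as written, while all 9 were found, once each, without regard to capitals.

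The study asked how obesity changes gene expression in the atria. Wild-type C57/Bl6J mice were put on a high-fat diet (HFD) or a control chow at 6 weeks of age and stayed on it for 10 weeks, after which RNA was taken from right and left atrial tissue. There were 3 HFD samples, called obese here, and 3 control samples, called lean. Animals of both groups were wild type and carried no transgene, and the weights of the mice that were sequenced are not given in the labels. The labels contradict one another on the diet: titles and table columns were followed, while the treatment field gives the opposite diet for all 6 samples, so every direction below rests on the titles. Nothing in the labels says whether a sample was 1 mouse or several, and p-values measure the spread between these samples.

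Ketone bodies are made mainly in liver from fatty acids and are burned by the heart. The carrier MCT1 (Slc16a1) brings them into the cell, beta-hydroxybutyrate dehydrogenase (Bdh1) oxidizes beta-hydroxybutyrate to acetoacetate, succinyl-CoA transferase (Oxct1) activates acetoacetate, and the thiolase Acat1 splits it into acetyl-CoA. Branched-chain amino acids lose their amino group to the mitochondrial transaminase Bcat2, and the branched-chain ketoacid dehydrogenase complex (subunits Bckdha and Bckdhb) then commits them to oxidation. The kinase Bckdk switches that complex off and the phosphatase Ppm1k switches it on, and Ivd carries out the next step for leucine.

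Between 15874251 and 28971508 reads fell on genes in each sample. The most deeply sequenced was lean sample 2, which also had the highest mitochondrial share (30.7% of reads, elsewhere 19.5% to 24.4%). Values are normalized counts, the reads of a gene divided by a size factor for the sample, and 3 reads corresponded to between 2.05 and 3.41 normalized counts (counting error only). All 9 genes lay far above that limit in every sample. Nppa, the atrial natriuretic peptide, measured between 171702 and 333975 normalized counts. Lean sample 2 also had the most of the ventricular light chain Myl2, 8176 normalized counts against at most 3470 elsewhere. That sample was the highest of all for Oxct1, Acat1, Ivd, Bdh1, Bcat2 and Bckdhb, but not for Slc16a1, Bckdha and Bckdk. Whether its Myl2 level and these values are related was not tested.

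In obese atria, 0 of the 9 genes passed limma's test after Benjamini-Hochberg adjustment over all genes tested (adjusted p under 0.05), either lower (0.262% of 15275 genes) or higher (0.484%). The log2 difference, obese minus lean, was negative for 9 of 9 genes, with a median of -0.29 and a range from -0.47 for Ivd to -0.06 for Slc16a1, although the sign for Slc16a1 turned with edgeR and DESeq2. Relative to atrial myocyte markers, a scale that shifts all 9 differences by the same amount, 6 of the 9 signs turned. Over all genes tested, 49.2% were lower and the median was 0.005. At an unadjusted p under 0.05, 5 of the 9 genes were lower (5.55% of all genes) and 0 were higher (6.66%). The obese samples lay wholly below the lean ones for 4 genes, Oxct1, Acat1, Bckdk and Ivd (9.17% of all genes), and wholly above for 0 (8.86%). The 5 genes under 0.05 before adjustment became 3 without obese sample 1, 1 without obese sample 2, 2 without lean sample 1, 1 without lean sample 2, 6 without obese sample 3, 7 without lean sample 3 and 1 without a variance trend. Over all genes, 1864 were under 0.05 before adjustment, against 1245 without lean sample 2 and 2227 without obese sample 3, the extremes of these fits. edgeR also called 0 of the 9 (87 of 15275 genes with TMM, 91 with RLE). DESeq2 on the recovered reads called 1, Ivd (448 of 24679 genes with any read). That set is wider than limma's, and by default DESeq2 can leave low genes in it without an adjusted p. These are bulk samples, in which fewer cells of a type and less RNA per cell cannot be told apart.

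**Figure D1:**
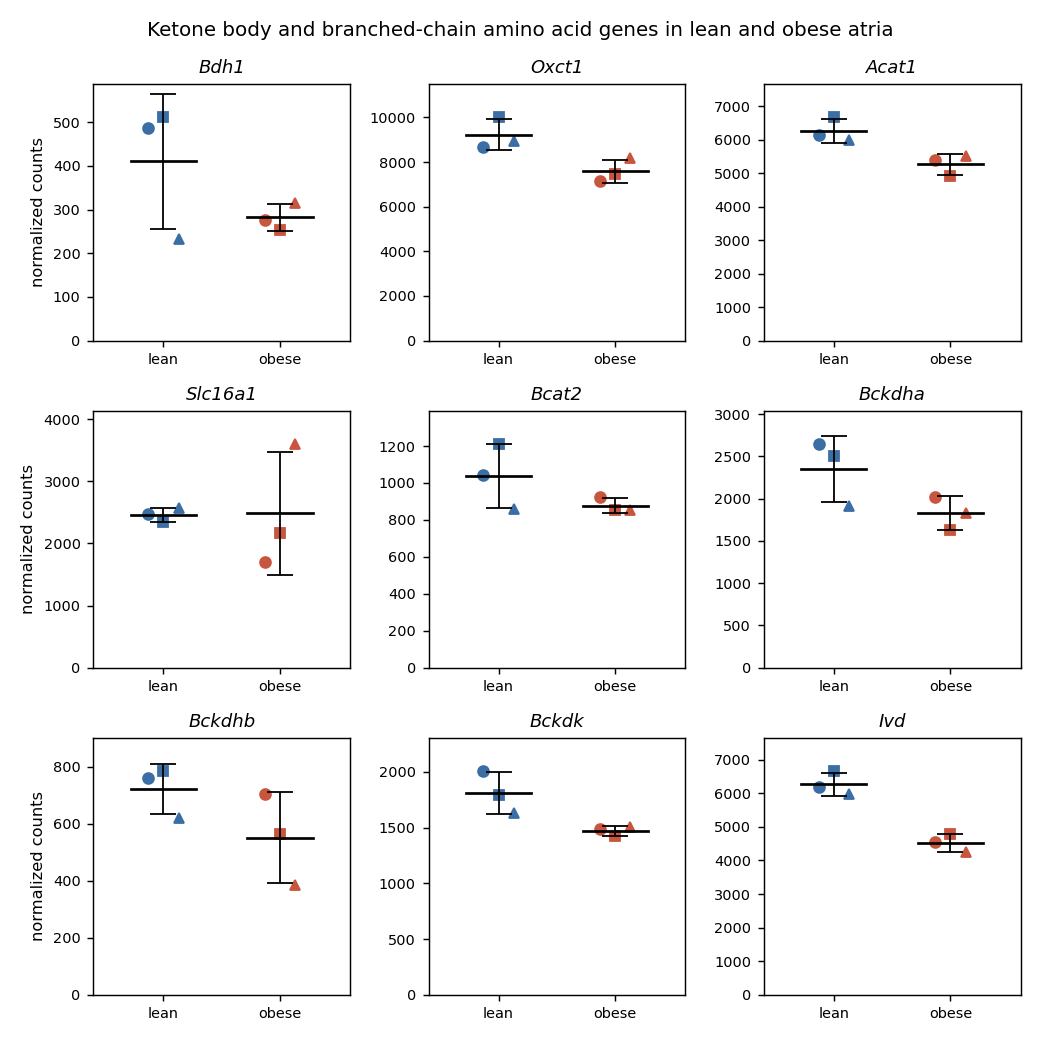
Normalized counts (vertical axis, from 0) of the 9 genes in the 3 lean (blue) and 3 obese (red) samples. Circles, squares and triangles are samples 1, 2 and 3 of each diet, long bars are group means and short bars the SD; Oxct1, Acat1, Bckdk and Ivd show no overlap between the diets, and Slc16a1 spreads widely among the obese samples.

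Most atrial myocyte markers also had a lower mean level in obese atria. Whether the 9 genes followed these markers from sample to sample was not tested. Of 6 markers, 5 had a negative log2 difference, with a median of -0.42, and 0 were called by limma. At an unadjusted p under 0.05 there were 3 lower (5.55% of all genes). Their mean log2 level was 15.58, 15.53 and 16.05 in obese samples 1, 2 and 3 and 16.09, 16.11 and 16.05 in lean samples 1, 2 and 3. Obese samples 1 and 2 were thus low and obese sample 3 was level with lean sample 3. By mean log2 level the diets did not overlap, with a difference of -0.363, obese minus lean (exact permutation p = 0.1). The gap was very small, as obese sample 3 and lean sample 3 both rounded to 16.051. The summed marker level overlapped between the diets, from 384165 to 636064 normalized counts in obese and from 569317 to 619394 in lean atria. The troponin gene Tnnt2 and the calcium pump inhibitor Sln were lower without overlap (log2 differences of -0.44 and -0.32; 9.17% of all genes). The light chain Myl7 had the largest difference (-0.66) but overlapped, with 58765 normalized counts in obese sample 3 against 56346 to 60190 in lean atria. The calcium release channel Ryr2 stood at 0.08.

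Ivd, isovaleryl-CoA dehydrogenase, oxidizes the leucine product isovaleryl-CoA and had the smallest p and, in limma's fit, the largest difference of the 9 genes. It lies on the plus strand at chr2:118861954-118882909 (GRCm38). Its normalized counts were 4543, 4777 and 4248 in obese samples 1, 2 and 3 and 6179, 6649 and 5987 in lean samples 1, 2 and 3. Every obese sample was below every lean one. Obese atria held 0.721 of the lean level, a log2 difference of -0.47 (SE 0.11, 95% confidence interval -0.71 to -0.23), with an unadjusted p of 0.00121 and an adjusted p = 0.0813 from limma's test with Benjamini-Hochberg adjustment. The adjusted p ran from 0.00398 with DESeq2 to 0.339 without lean sample 2, and it was under 0.05 in 1 of 16 other fits. Ivd was lowest of all 6 samples in obese sample 3. The mean myocyte marker level of that sample was close to that of lean sample 3, though Sln and Tnnt2 were below every lean sample there. A relation of Ivd to these markers was not tested.

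RefSeq (GRCm38.p6) gives a promoter window for 8 of the 9 genes, 11 windows in all, each of 300 bases with 250 before and 50 after a transcription start. Those of 3 genes without overlap between the diets, Ivd (chr2:118861744-118862043, plus strand), Oxct1 (chr15:4026178-4026477, plus strand) and Bckdk (chr7:127903823-127904122, plus strand), are shown 5′ to 3′ because these genes lay lower together. Capitals mark CACCC or its reverse complement GGGTG, the box read by Krüppel-like factors such as Klf15, a regulator of branched-chain amino acid breakdown whose own level is given further on.
Ivd: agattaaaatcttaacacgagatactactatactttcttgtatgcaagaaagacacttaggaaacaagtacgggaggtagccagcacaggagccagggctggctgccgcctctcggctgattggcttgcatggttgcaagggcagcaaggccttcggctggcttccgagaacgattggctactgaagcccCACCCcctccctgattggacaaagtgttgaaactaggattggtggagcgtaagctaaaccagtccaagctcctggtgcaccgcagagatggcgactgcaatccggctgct
Oxct1: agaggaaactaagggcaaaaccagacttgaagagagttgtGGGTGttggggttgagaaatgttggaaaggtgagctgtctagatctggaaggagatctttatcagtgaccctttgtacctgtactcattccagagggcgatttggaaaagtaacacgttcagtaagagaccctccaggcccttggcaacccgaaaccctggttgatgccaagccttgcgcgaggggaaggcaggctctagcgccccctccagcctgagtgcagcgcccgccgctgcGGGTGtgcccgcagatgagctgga
Bckdk: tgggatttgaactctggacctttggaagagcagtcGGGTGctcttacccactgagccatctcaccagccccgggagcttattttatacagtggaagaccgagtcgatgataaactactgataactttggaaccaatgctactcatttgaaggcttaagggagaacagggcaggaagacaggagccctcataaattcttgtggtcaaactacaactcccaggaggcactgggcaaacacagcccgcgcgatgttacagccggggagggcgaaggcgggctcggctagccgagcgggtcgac

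CACCC was present, on either strand, in 7 of the 11 windows (at least 1 window of 7 of the 8 genes) and in 57.5% of the 32851 RefSeq windows of the same length. The CCAAT box occurred in 4 of the 11 windows, those of Ivd, Bckdk and both of Bckdhb, against 37.4% of all windows, and the Ivd window held 4 copies, all read as ATTGG on the printed strand. The nuclear receptor hexamer AGGTCA was found in 1 window (Bckdhb) against 16.3%, the E-box CACGTG in 1 (Slc16a1) against 7.2%, and the ATF4 element TGATGNAA in 0 against 4.0%. Both strands were searched, the 5 motifs do not contain one another, and these matches describe the letters only.

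Among the ketone body genes, Slc16a1 (chr3:104638668-104658462, plus strand), which also carries lactate and pyruvate, differed least between the diets. Its normalized counts were 1698, 2165 and 3597 in obese samples 1, 2 and 3 and 2468, 2345 and 2569.7 in lean samples 1, 2 and 3. Obese sample 3 was the highest of all and obese sample 1 the lowest, so the obese values enclosed the lean ones. Obese and lean differed by -0.06 on the log2 scale (SE 0.22, 95% confidence interval -0.55 to 0.44, adjusted p = 0.953 from limma's test), and it was 0.18 without obese sample 1 and -0.36 without obese sample 3.

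Bdh1 (chr16:31422280-31458901, plus strand) is the entry enzyme for beta-hydroxybutyrate. It measured 277, 254 and 315 normalized counts in obese samples 1, 2 and 3 and 487, 512 and 233 in lean samples 1, 2 and 3. Lean sample 3 was below all 3 obese samples, and lean samples 1 and 2 were above them. On the log2 scale the difference was -0.46 (SE 0.27, 95% confidence interval -1.05 to 0.13, adjusted p = 0.539 from limma's test). It was -0.83 without lean sample 3, -0.30 without lean sample 1 and -0.26 without lean sample 2.

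Oxct1 (chr15:4026383-4155344, plus strand) encodes the transferase that liver largely lacks, which keeps ketone body use outside the organ that makes them. Its normalized counts were 7145, 7465 and 8162 in obese samples 1, 2 and 3 and 8694, 10016 and 8953 in lean samples 1, 2 and 3. The diets did not overlap, the nearest values being obese sample 3 and lean sample 1. The log2 difference was -0.28 (SE 0.12, 95% confidence interval -0.53 to -0.03), with an unadjusted p of 0.0337 and an adjusted p = 0.359 from limma's test.

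Acat1 (chr9:53580522-53610382, minus strand) closes ketone body oxidation and also serves the last step of isoleucine breakdown. It measured 5379, 4903 and 5494 normalized counts in obese samples 1, 2 and 3 and 6128, 6668 and 5989.9 in lean samples 1, 2 and 3. All obese samples were below all lean samples. A log2 difference of -0.25 was fitted (SE 0.11, 95% confidence interval -0.49 to -0.01), with an unadjusted p of 0.0411 and an adjusted p = 0.382 from limma's test.

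For branched-chain amino acids, Bcat2 (chr7:45570153-45589710, plus strand) carries the first, reversible step. Its normalized counts were 922, 854 and 853 in obese samples 1, 2 and 3 and 1042, 1209 and 860.2 in lean samples 1, 2 and 3. Lean sample 3 lay among the obese samples, and the other 2 lean samples were above them. The log2 difference was -0.23 (SE 0.14, 95% confidence interval -0.54 to 0.08, adjusted p = 0.561 from limma's test), and it was -0.11 without lean sample 2 and -0.36 without lean sample 3.

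Bckdha (chr7:25629852-25658761, minus strand) and Bckdhb (chr9:83925145-84124240, plus strand) encode the alpha and beta chains of the decarboxylase component. Bckdha measured 2024, 1625 and 1833 normalized counts in obese samples 1, 2 and 3 and 2642, 2503 and 1908 in lean samples 1, 2 and 3. Bckdhb measured 704, 565 and 384 normalized counts in obese samples 1, 2 and 3 and 760.3, 783 and 621 in lean samples 1, 2 and 3. For both chains 1 obese sample, sample 1, lay above lean sample 3, and obese sample 3 had the lowest Bckdhb of all. The log2 difference was -0.36 for Bckdha (SE 0.14, 95% confidence interval -0.68 to -0.03, adjusted p = 0.357 from limma's test). For Bckdhb it was -0.42 (SE 0.20, 95% confidence interval -0.88 to 0.03, adjusted p = 0.445 from limma's test), and it was -0.19 without obese sample 3. The ratio of Bckdhb to Bckdha did not differ beyond its spread (difference of log2 ratios -0.07, two-sided exact permutation p = 1.0, n = 3 per diet), and without obese sample 3, whose ratio of 0.209 was the lowest, the difference was 0.17.

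Bckdk (chr7:127904082-127909664, plus strand), the inhibitory kinase, was also lower in every obese sample. Its normalized counts were 1485, 1421 and 1507 in obese samples 1, 2 and 3 and 2003, 1794 and 1631 in lean samples 1, 2 and 3. The obese samples lay close together, with an SD of 45.0 against 187 in lean atria. The log2 difference was -0.29 (SE 0.11, 95% confidence interval -0.55 to -0.04), with an unadjusted p of 0.0266 and an adjusted p = 0.331 from limma's test.

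A ratio of transcripts within a sample does not depend on how libraries are scaled. The ratio of Bckdk to its substrate subunit Bckdha ran from 0.733 to 0.874 in obese and from 0.717 to 0.855 in lean atria. The diets overlapped almost wholly, with a difference of log2 ratios of 0.06 (two-sided exact permutation p = 0.7, n = 3 per diet). The phosphatase Ppm1k against Bckdk gave 1.501, 1.425 and 0.687 in obese samples 1, 2 and 3 and 0.808, 1.12 and 1.47 in lean samples 1, 2 and 3, again overlapping (difference 0.05, exact permutation p = 0.9). Its sign turned with the sample left out (from -0.17 to 0.41). The ratio of Oxct1 to Bdh1 was 25.8, 29.4 and 25.9 in obese samples 1, 2 and 3 and 17.9, 19.6 and 38.5 in lean samples 1, 2 and 3 (difference 0.18, exact permutation p = 0.6). Lean sample 3, with its low Bdh1, stood above all others, and the difference was 0.53 without it and -0.02 without lean sample 1. Bckdha against Bcat2 differed by -0.13 (exact permutation p = 0.4). With 5 ratios tested and 3 samples a diet, no exact p could fall below 0.1, and the groups overlapped for all 5.

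Per kilobase of principal transcript (GENCODE M21), Oxct1 was the most abundant of the 9 in lean atria at 2614 ± 199 normalized counts per kb (SD, n = 3), followed by Acat1 at 1839 ± 105 and Ivd at 1711 ± 93.0. Bckdha came next at 1238 ± 205. Bcat2 stood at 585 ± 98.5, Slc16a1 at 556 ± 25.5, Bckdk at 531 ± 54.8 and Bckdhb at 490.0 ± 59.6. Bdh1 was the least abundant at 131 ± 49.5 (SD, n = 3). The order from Oxct1 through Acat1, Ivd and Bckdha to Bcat2 held in 6 of 6 samples, as did Bckdhb above Bdh1. Bcat2 was above Slc16a1 in only 3 of 6 samples, and the lean ranges of the neighbours Bcat2, Slc16a1, Bckdk and Bckdhb overlapped, as did those of Acat1 and Ivd. Taken within each sample and averaged over the 3 lean samples, the ratio of the transferase Oxct1 to the entry enzyme Bdh1 per kb was 22.4, raised by lean sample 3, and that of the beta chain Bckdhb to the alpha chain Bckdha was 0.398. The obese means of these ratios per kb were 23.9 and 0.389.

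**Figure D2:**
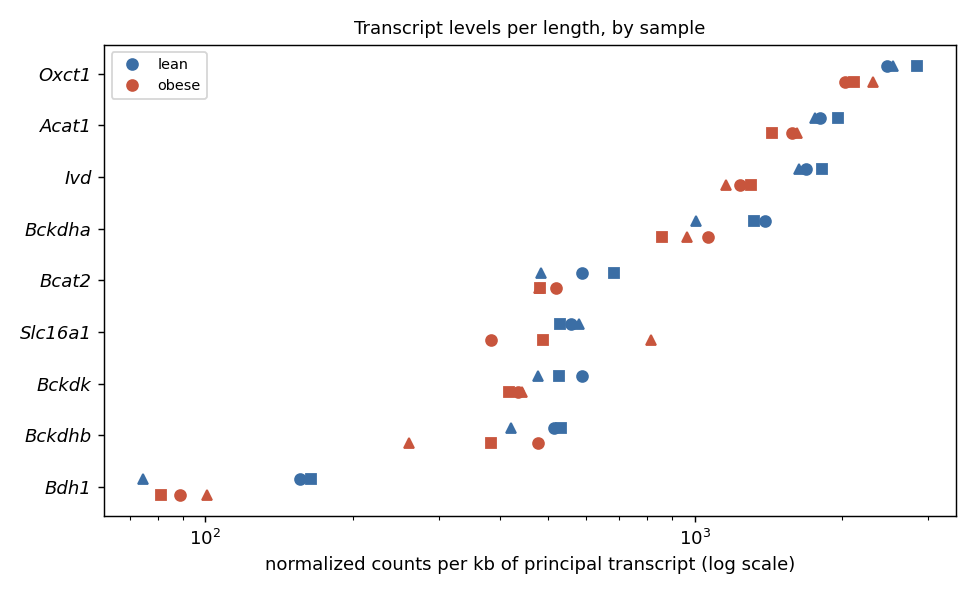
Level of each of the 9 genes in normalized counts per kb of principal transcript (horizontal log axis), ordered by the lean mean. Blue marks are lean and red marks obese samples, with circles, squares and triangles for samples 1, 2 and 3; Oxct1 lies furthest right and Bdh1 furthest left in both diets.

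Of 47 further genes in 8 lists around these pathways, 45 passed the filter on low values, and Oxct2a and Oxct2b, testis forms of the transferase, had 0 reads in all 6 samples. Their median log2 difference was -0.10, with 29 lower and 16 higher. limma called 0 lower and 1 higher, Slc7a5 (0.262% and 0.484% of all genes). At an unadjusted p under 0.05 there were 7 lower and 3 higher (5.55% and 6.66% of all genes). edgeR called 1 of the 45 (87 of 15275 genes with TMM, 91 with RLE) and DESeq2 called 2 (448 of 24679 genes with any read).

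The mitochondrial steps that follow transamination had mostly negative differences. In the 4 lists of complex partners, leucine branch, isoleucine and valine branch and propionyl-CoA branch, 18 of 20 genes had a negative log2 difference, with a median of -0.21, against 49.2% lower and a median of 0.005 over all genes. Of the 20, 9 were lower without overlap (9.17% of all genes). limma called 0 of the 20, and 7 were lower at an unadjusted p under 0.05 (5.55% of all genes). Dbt, the transacylase core of the ketoacid dehydrogenase complex, measured 540.5, 522 and 405 normalized counts in obese samples 1, 2 and 3 and 568, 624 and 669 in lean samples 1, 2 and 3. It did not overlap between the diets (log2 difference -0.35, adjusted p = 0.369 from limma's test), and the difference was -0.22 without obese sample 3. The phosphatase Ppm1k had a log2 difference of -0.24 (adjusted p = 0.762 from limma's test). Obese sample 3 was the lowest of all with 1036 normalized counts, and the difference was 0.10 without it.

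Downstream of Ivd in leucine breakdown, Mccc1 and Mccc2 form methylcrotonyl-CoA carboxylase. Mccc2 measured 712, 698 and 629 normalized counts in obese samples 1, 2 and 3 and 880.1, 842 and 859 in lean samples 1, 2 and 3. Mccc1 measured 1256, 1167 and 1324 normalized counts in obese samples 1, 2 and 3 and 1532, 1614 and 1530.2 in lean samples 1, 2 and 3. Both carboxylase chains were lower in every obese sample, by nearly the same amount (log2 differences of -0.34 and -0.32, adjusted p = 0.236 and 0.237 from limma's test). In the isoleucine and valine branch 7 of 7 genes had a negative difference (median -0.18), led by Echs1, the enoyl-CoA hydratase shared with fatty acid oxidation, at -0.31 (adjusted p = 0.298), and Acad8, isobutyryl-CoA dehydrogenase, at -0.26 (adjusted p = 0.389). In the propionyl-CoA branch 5 of 7 were lower (median -0.13). Pccb, a chain of propionyl-CoA carboxylase, stood at -0.36 (adjusted p = 0.225) and Mmab, which prepares the cobalamin cofactor, at -0.37 (adjusted p = 0.354), or -0.22 without obese sample 3. The obese and lean values did not overlap for Echs1, Acad8, Pccb or Mmab.

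**Figure D3:**
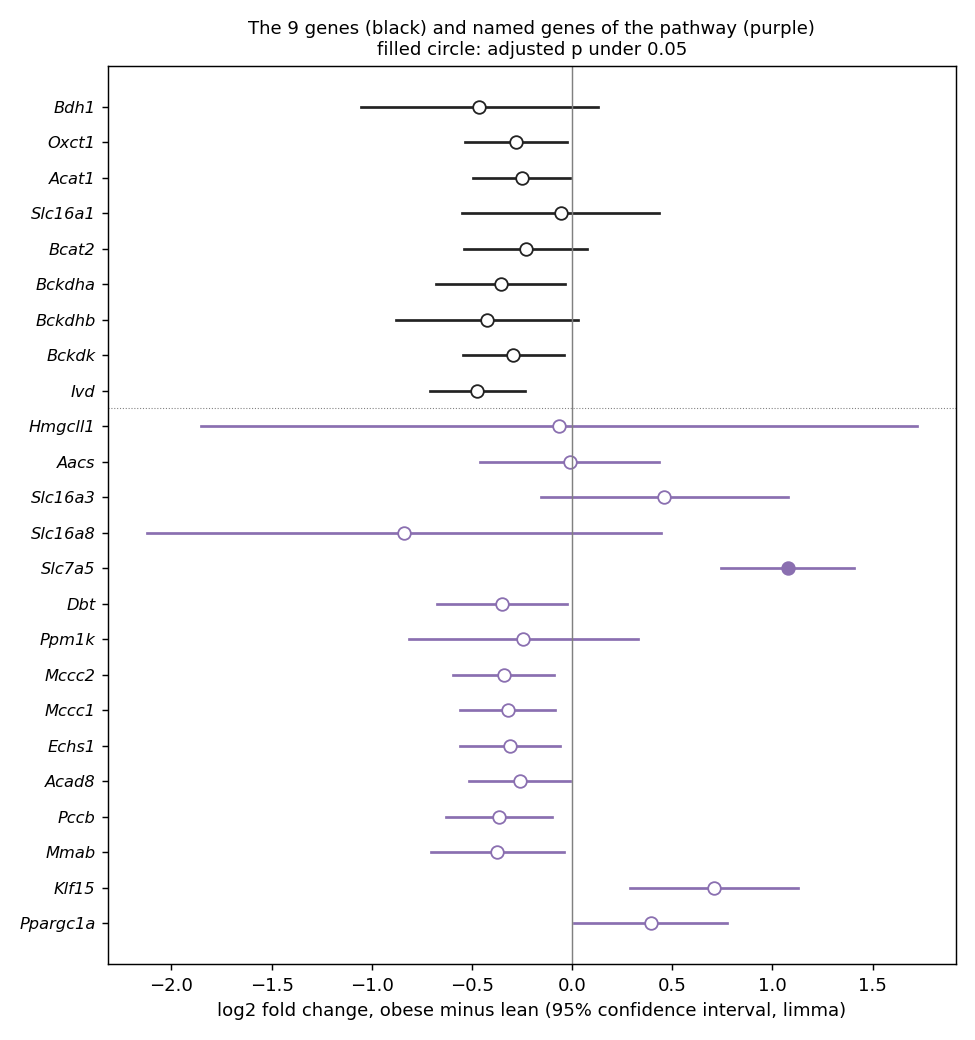
Log2 fold change, obese minus lean (horizontal axis), with limma's 95% confidence interval for the 9 genes (black) and named genes of the surrounding lists (purple). Filled circles mark an adjusted p under 0.05, which holds for Slc7a5 among the genes shown; the circles of all 9 genes lie left of 0 on this scale (that of Slc16a1 turned with edgeR and DESeq2), and the intervals of Bdh1, Slc16a1, Bcat2 and Bckdhb cross it.

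Slc7a5, the light chain of the transporter LAT1 that imports leucine and other large neutral amino acids, rose in obese atria. It measured 321, 384 and 387 normalized counts in obese samples 1, 2 and 3 and 180.3, 162 and 174 in lean samples 1, 2 and 3. Both groups were tight and far apart. The fold was 2.11 (log2 difference 1.08, SE 0.15, adjusted p = 0.014 from limma's test). The call held in 12 of 16 other fits, with edgeR and DESeq2 among them, and was lost without a variance trend (adjusted p = 0.119) and without obese sample 2 (0.0649), lean sample 2 (0.0824) or lean sample 3 (0.0613). Its partner chain Slc3a2 stood at 0.27 (unadjusted p = 0.0506, adjusted p = 0.413 from limma's test), with overlap. In this list of uptake and transamination genes 6 of 7 had a positive difference, with a median of 0.27, against 7761 of 15275 genes over all. Only Slc7a5 had an unadjusted p under 0.05 by limma (6.66% of all genes were higher at that threshold). Bcat2, which is not in this list, and 18 of the 20 mitochondrial genes had negative differences.

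Regulators of the pathways gave a median of 0.02 over 7 genes, with 3 lower, 4 higher and 0 called by limma. At an unadjusted p under 0.05 there were 2 higher (6.66% of all genes). Klf15 measured 1337, 1122 and 902 normalized counts in obese samples 1, 2 and 3 and 728, 814 and 521 in lean samples 1, 2 and 3. It did not overlap between the diets (log2 difference 0.71, SE 0.19, unadjusted p = 0.00359, adjusted p = 0.129 from limma's test). The adjusted p was 0.0139 with DESeq2 and 0.0398 without obese sample 3, and it stayed over 0.05 in the other 14 of 16 fits, up to 0.329 without a variance trend. Ppargc1a, the coactivator of mitochondrial genes, stood at 0.39 (adjusted p = 0.391) with overlap, or 0.21 without obese sample 2. Among 7 further monocarboxylate transport genes, 5 were lower and 2 higher, none passed at an unadjusted p under 0.05 by limma, and the median was -0.10. The lactate exporter Slc16a3 stood at 0.46 (adjusted p = 0.562; 0.26 to 0.70 with a sample left out) and Slc16a8 at -0.84 (adjusted p = 0.618; -1.26 to -0.61), both at under 90 normalized counts. Of 4 tested genes of ketone body metabolism outside the oxidation route, 2 were lower and 2 higher, with a median of -0.005 and 0 at an unadjusted p under 0.05 by limma. Aacs, the cytosolic acetoacetyl-CoA synthetase, measured 162, 127 and 184 normalized counts in obese samples 1, 2 and 3 and 186, 152 and 138 in lean samples 1, 2 and 3. The diets overlapped (log2 difference -0.01, adjusted p = 0.991 from limma's test), as they did for Hmgcll1 at under 21 normalized counts (-0.06, adjusted p = 0.987), and the sign of both turned with the sample left out.

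**Figure D4:**
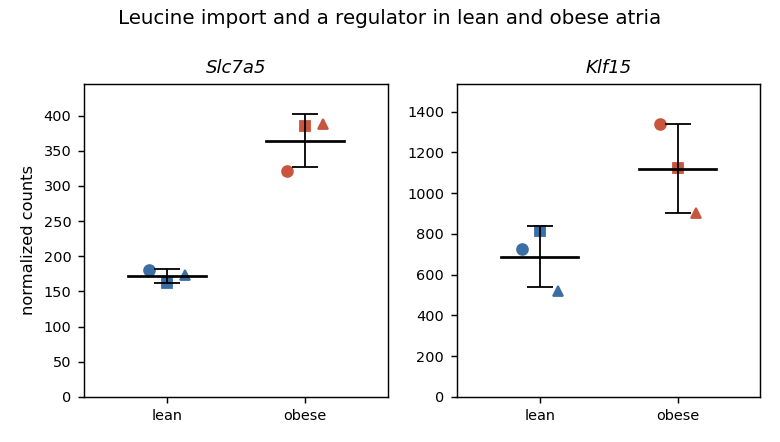
Normalized counts (vertical axis, from 0) of Slc7a5 and Klf15 in lean (blue) and obese (red) samples. Circles, squares and triangles are samples 1, 2 and 3, long bars are means and short bars the SD; in both genes every obese sample lies above every lean one.

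Markers of other cell types differed between the diets as well. The summed level of 4 brown adipocyte markers was 1283, 616 and 1275.5 normalized counts in obese samples 1, 2 and 3 and 330.3, 239 and 187 in lean samples 1, 2 and 3. The uncoupling protein Ucp1 measured 706, 173 and 745 normalized counts in obese samples 1, 2 and 3 and 86.2, 5.48 and 15.3 in lean samples 1, 2 and 3, and both it (log2 difference 4.43, adjusted p = 0.0446) and Cidea (1.21, adjusted p = 0.031) rose by limma's test. All 4 brown markers lay higher without overlap (8.86% of all genes tested), though Elovl3 reached at most 14.1 normalized counts and was not tested. None of the 4 was at 0 in all samples.

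White adipocyte markers overlapped, with sums from 1257 to 3718 normalized counts in obese and from 568 to 2747 in lean atria and 0 of 6 called by limma (0 at an unadjusted p under 0.05). Adiponectin (Adipoq) measured 533, 146 and 170.4 normalized counts in obese samples 1, 2 and 3 and 334, 149 and 67.8 in lean samples 1, 2 and 3. The endothelial sum was higher without overlap, from 12732 to 14105 against 10518 to 11163 (Pecam1 log2 difference 0.57, adjusted p = 0.0504 from limma's test), while Cdh5 (0.04) and Kdr (0.14) overlapped. The leukocyte sum was higher too, from 1219.5 to 1482 against 825 to 1012, and its marker Itgam rose (log2 difference 1.18, adjusted p = 0.0106 from limma's test). The mean log2 level of the 5 leukocyte markers overlapped, and Ptprc ran from 121 to 362 normalized counts in obese and from 154 to 177 in lean atria (log2 difference 0.43, adjusted p = 0.651). Fibroblast sums overlapped, from 24406 to 27394 against 25194 to 29858, with Col1a1 at 0.20 (adjusted p = 0.683). Ventricular myocyte sums overlapped, from 6882 to 9866 against 7919 to 17399, and lean sample 2 was the highest, with 8176 normalized counts of the ventricular light chain Myl2 against at most 3470.0 elsewhere. Hepatocyte markers summed to at most 36.2 normalized counts, and Alb reached at most 3.06. The part of these markers in the differences of the 9 genes was not tested, and the scaling to myocyte markers that follows is a description that does not test it.

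Relative to the mean log2 level of the 6 atrial myocyte markers in the same sample, a scale chosen after the data had been seen, 3 of the 9 genes were lower in obese atria and 6 were higher, and 0 lay without overlap. The median difference of the 9 genes was 0.07. The marker mean itself differed by -0.363, obese minus lean, and the scale shifts every gene's difference by that same amount. The turned signs therefore restate the marker difference and are not a separate result for each gene. Ivd (-0.11), Bdh1 (-0.10) and Bckdhb (-0.06) kept a negative sign, and Oxct1 (0.08), Acat1 (0.11), Slc16a1 (0.31), Bcat2 (0.13), Bckdha (0.01) and Bckdk (0.07) turned positive. The two-sided exact permutation p ran from 0.3 to 1.0 with 3 samples a diet. In obese samples 1 and 2 this relative level of Ivd was -3.43 and -3.31 on the log2 scale, near the lean values of -3.49, -3.41 and -3.50, and in obese sample 3 it was -4.00. That low value was not particular to Ivd. All of the 9 genes except Slc16a1 were lowest of the obese samples there, where the marker mean was 16.05 against 15.58 and 15.53 in obese samples 1 and 2. Leaving out obese sample 3, the obese sample with the highest mean marker level, gave a median of -0.33 over the 9 genes on the normalized scale.

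**Figure D5:**
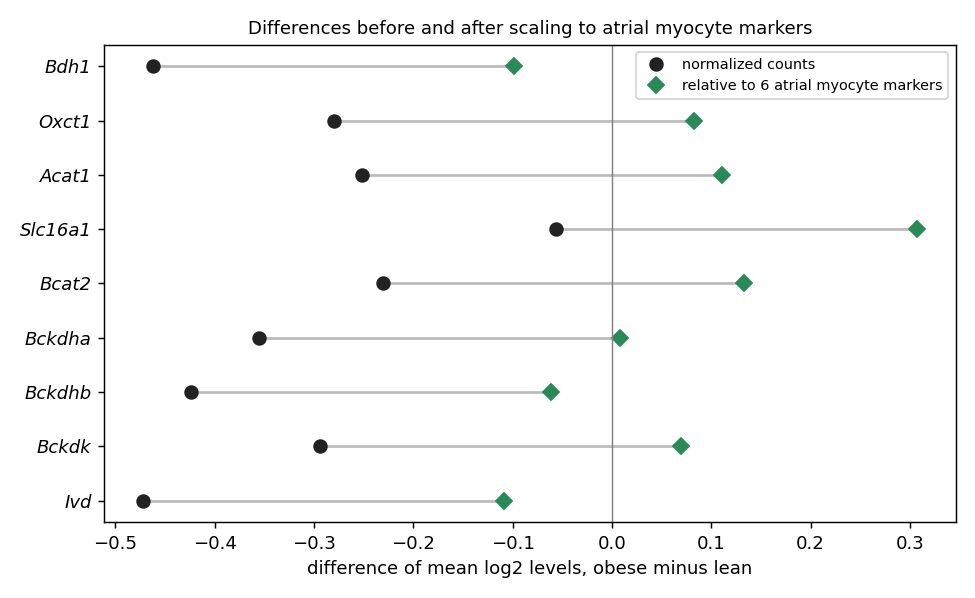
Difference of mean log2 levels, obese minus lean (horizontal axis), for each of the 9 genes on the normalized count scale (black circles) and relative to the mean of 6 atrial myocyte markers (green diamonds). All black circles lie left of 0 in limma's fit (Slc16a1 turned with edgeR and DESeq2), and 6 of the 9 diamonds lie right of it. Every diamond is shifted from its circle by the same amount, the difference of the marker mean.

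Over the 6 samples, the genes of 15275 whose log2 level followed Ivd most closely were Fitm1 (Pearson r = 0.997), Catsper2 (0.993) and the ribosomal pseudogene Rpl36a-ps1 (0.991). With 6 samples shared by all genes and 15275 genes searched, these are descriptions. Exons of Oxct1, Bcat2, Bdh1 and Bckdha overlap those of BC037032, 0610005C13Rik, Gm15743 and B3gnt8 on the opposite strand. Whether reads were counted by strand is not given, so those of these pairs cannot be told apart.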

How the data were processed

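RNA from atrial tissue of 3 HFD and 3 control samples was made into directional libraries. The authors aligned reads to GRCm38 with STAR, kept uniquely mapped reads and assigned them to Ensembl 79 genes with Salmon; tool versions and the use of strand are not given in the sources used here. What the authors deposited is a signal for each gene, its reads divided by the DESeq2 size factor of the sample, and 100% of values gave back whole reads (tolerance 0.01). The table also holds the authors' own comparison (mean, log2 fold change and its standard error, Wald statistic, p-values and a ranking metric), which was not used. Of 43432 gene identifiers, 42462 (97.8%) matched GENCODE M21 names, and 1 row without an identifier was left out.

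The comparison of diets used limma 3.58.1 under R 4.3.3: lmFit, then eBayes with a trend, fitted to log2(normalized count + 1), a scale that understates changes of low genes. Genes averaging at least 10 normalized counts were tested without covariates, p-values were adjusted by Benjamini-Hochberg and 0.05 was the threshold. Ratios within samples were compared by exact permutation (two-sided), which cannot go below 0.1. The members and lists were chosen with earlier results of these data known. All members were named; of each list, the genes with an adjusted p under 0.05 were named or, failing any, the 2 with the smallest p, together with the first gene of each marker list, any called marker, and Ucp1, Adipoq and Nppa. Slc3a2, Tnnt2, Sln, Myl7, Ryr2, Elovl3, Cdh5 and Kdr were added after their values were seen. Alternatives were quantile normalization, no variance trend, mitochondrial genes left out, a pseudocount of 0.1, 2 other filters, a replicate block, each sample left out, and edgeR 4.0.16 (TMM or RLE) and DESeq2 1.42.0 on recovered reads. The tests were first tried on simulated data with known changes. There limma recovered 8 of 49 genes changed 1.5-fold, 27 of 50 changed 2-fold and 45 of 48 changed 8-fold. In limma's fit all 9 member genes differed by less than 1.5-fold, so a change of their size would often be missed. Some genes of the lists are not reported here, and counts over the lists leave them out.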

Additional observations from a re-analysis of the deposited data

How the results depend on the processing

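The number of genes called moved with the fit: 114 genes in limma's test, 0 without a variance trend (1717 at an unadjusted p under 0.05), 448 with DESeq2, and from 14 to 342 with a sample left out. The largest of these, 342, came without obese sample 3, and the smallest, 14, without lean sample 2. Of the 9 genes, 0 were called in 15 of 16 alternatives and 1 with DESeq2 (Ivd, log2 difference -0.47, adjusted p = 0.00398). Of the surrounding lists, limma called 1 gene, against 0 without a variance trend, 2 with DESeq2, and from 0 (without obese sample 2, lean sample 2 or lean sample 3) to 2 (without obese sample 3). Slc16a1 turned positive with edgeR (0.012 with TMM, 0.014 with RLE) and DESeq2 (0.015), and ranged from -0.36 to 0.18 with a sample left out; Ppm1k ranged from -0.45 to 0.10, Hmgcll1 from -0.78 to 0.51 and Aacs from -0.13 to 0.13. Ratios with a sample left out ranged from -0.17 to 0.41 for Ppm1k to Bckdk, from -0.19 to 0.17 for Bckdhb to Bckdha and from -0.024 to 0.53 for Oxct1 to Bdh1. Relative to the myocyte markers, a scale added after the data had been seen that shifts all 9 genes by the same amount, Oxct1 stood at 0.083, Acat1 at 0.111, Slc16a1 at 0.307, Bcat2 at 0.133, Bckdha at 0.008 and Bckdk at 0.07. Where no value is named above as the reason, the cause was not tested. The replicate numbers do not pair the samples (correlations of same-numbered deviations of 0.116, -0.027 and -0.004, and not every sample correlated best with its own number), and with them as a block 157 genes, 0 of the 9 and 1 of the list genes were called.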
